A study of Mus musculus with 2 samples.

Results

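Mb, Vegfa, Vegfb, Hif1a and Epas1 were followed across single myofibers as 5 genes of oxygen storage, vessel growth and the response to low oxygen. They are 5 of the 35163 genes in the table and were listed by name. The cells came from a foot muscle of fast fibres, the flexor digitorum brevis (FDB), of 1 untreated C57BL/6J mouse that was over 3 months old. The paper's methods name male mice of both C57BL/6J and DBA2 backgrounds and do not say which gave these cells. The muscle was digested with Collagenase Type II, or cut into pieces to give myofiber fragments, and a large particle sorter placed single myofibers into the wells of plates. The cells carry 8 index numbers, 705 to 712, and each index is taken here as 1 plate. Of the 2 lanes, lane 1 held 705 to 708 and lane 2 held 709 to 712. Differences between lanes therefore cannot be told apart from those between these sets of plates. RNA was measured by mcSCRB-seq, in which random tags (unique molecular identifiers, UMIs) let the copies of an RNA molecule be counted as 1. All cells thus belong to 1 mouse: they are not replicates, no treatment was compared, and no p-value is given.

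Of 763 cells, 171 (22.4%) had more than 5000 detected genes and less than 20% mitochondrial counts (168 whole myofibers and 3 fragments). Their UMI totals ranged from 28827 to 1542996 with a median of 239581. The 763 barcodes were distinct and 0 were shared between lanes. Each cell was classed by the largest of its Myh1, Myh2, Myh4, Myh7 and Myh8 counts, the myosin heavy chains of fast 2X, fast 2A, fast 2B, slow and neonatal fibres. This gave 117 fast 2X cells, 51 fast 2A cells, 2 slow cells and 1 fast 2B cell. The paper also counted cells with modestly raised Myh7 as slow and so reported more slow fibres. Some of those may be among the fast cells here. Fast 2X cells had a median of 255726 UMIs and 5.01% mitochondrial counts, and fast 2A cells had 206510 UMIs and 6.96%. No doublet caller was run, and a well may have held more than 1 fibre.

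The tissue label was checked with 6 myofiber markers (Acta1, Ttn, Ckm, Des, Neb and Tnnc2), whose summed level had a median of 104617 CPM (UMI counts scaled to a common total of 1000000 per cell or class) in fast 2X cells and 115286 CPM in fast 2A cells. In 8 cells, comprising 6 fast 2X cells, 1 fast 2A cell and the fast 2B cell, this sum was under 50000 CPM. Those 8 cells carried more RNA of other cell types, and they are described with Epas1 below and left out wherever their absence is mentioned. The summed markers of endothelial cells were 135 CPM in fast 2A and 144 CPM in fast 2X cells, those of pericytes and smooth muscle 79.7 and 87.4 CPM, and those of fibro-adipogenic cells 46.6 and 46.1 CPM. Erythrocyte markers summed to 8.82 and 22.0 CPM, macrophage markers to 17.1 and 17.0 CPM, satellite cell markers to 18.9 and 17.6 CPM, and Schwann cell markers to 14.6 and 24.9 CPM. None of the markers in these lists was at 0 over the 171 cells.

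Myoglobin is the oxygen-binding haem protein that gives oxidative muscle its red colour and that stores oxygen and eases its movement to mitochondria. Hypoxia-inducible factors consist of an oxygen-regulated subunit, such as HIF-1α (Hif1a) or HIF-2α (Epas1), and a constant partner, and they switch on genes of glycolysis and of vessel growth, Vegfa among them. Prolyl hydroxylases mark the oxygen-regulated subunits for destruction when oxygen is present, so these factors are set largely at the protein level, which RNA counts do not show.

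Positions are of GRCm38 with GENCODE M21 genes. Mb lies on chromosome 15 from 77015487 to 77050670 on the minus strand. Vegfa lies on chromosome 17 from 46016993 to 46032369 and Vegfb on chromosome 19 from 6982473 to 6987651, both on the minus strand. Hif1a lies on chromosome 12 from 73901375 to 73947530 and Epas1 on chromosome 17 from 86753700 to 86833410, both on the plus strand. Exons of Mb overlap those of Apol6 and of the antisense gene Gm49540, which had 627 and 95 counts over the 171 cells against 83828 for Mb. Exons of Hif1a overlap those of the antisense gene Gm15283 and of Gm49321, which had 430 and 172 counts against 404 for Hif1a. Whether counting used strand is not given in the sources used here, so the Hif1a counts are uncertain.

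The upstream sequences of Mb, Vegfa and Vegfb are shown because their summed levels differed between the classes in the same direction on each plate. RefSeq (GRCm38.p6) upstream windows matched 4 of the 5 members. Each line gives the 250 bases before 1 listed start, 5′ to 3′ on the gene's own strand, and none of these windows overlaps an annotated exon. Capitals mark, on either strand, the cores ACGTG and GCGTG that hypoxia-inducible factors recognise, the site AGGTCA of oestrogen-related receptors and the CCAC box CCACCC.
Mb (chr15:77022788-77023037): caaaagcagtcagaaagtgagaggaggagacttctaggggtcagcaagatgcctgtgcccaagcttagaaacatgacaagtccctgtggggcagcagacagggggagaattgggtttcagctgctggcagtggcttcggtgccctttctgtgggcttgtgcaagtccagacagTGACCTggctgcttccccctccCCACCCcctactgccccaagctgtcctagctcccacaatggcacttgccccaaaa
Vegfa (chr17:46032378-46032627): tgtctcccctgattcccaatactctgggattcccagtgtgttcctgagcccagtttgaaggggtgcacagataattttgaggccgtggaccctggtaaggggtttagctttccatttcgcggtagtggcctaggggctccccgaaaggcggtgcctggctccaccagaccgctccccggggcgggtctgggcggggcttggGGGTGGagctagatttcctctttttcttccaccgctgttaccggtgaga
Vegfb (chr19:6987652-6987901): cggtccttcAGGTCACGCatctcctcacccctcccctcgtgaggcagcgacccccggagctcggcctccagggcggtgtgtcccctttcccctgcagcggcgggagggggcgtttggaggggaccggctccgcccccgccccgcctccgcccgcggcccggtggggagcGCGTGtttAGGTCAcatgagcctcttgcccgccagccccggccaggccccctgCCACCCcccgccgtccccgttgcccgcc
This Mb window held AGGTCA at -77 and CCACCC at -55, counted from the first base before the start as -1, and neither hypoxia core. This Vegfa window held CCACCC at -49 and none of the other motifs in capitals. RefSeq lists further starts for Mb and Vegfa, and the window of a second Vegfa start, at 46025163, held ACGTG at -211 and GCGTG at -218 and overlapped an exon of Vegfa. The Vegfb window held GCGTG at -237 and -81, AGGTCA at -241 and -73 and CCACCC at -28, with the AGGTCA at -241 and the GCGTG at -237 overlapping. Of 32851 RefSeq windows of this length, 16.6% held ACGTG, 28.2% GCGTG, 14.0% AGGTCA and 28.1% CCACCC. The matches are a description of these letters only.

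Mb was higher in fast 2A than in fast 2X myofibers. Per cell, Mb ranged from 50.8 to 3171 CPM in fast 2X cells with a median of 1534, and from 332 to 5123 CPM in fast 2A cells with a median of 2144. The classes overlapped widely, but 43 of 51 fast 2A cells lay above the fast 2X median and 6 lay above every fast 2X cell. With the counts of a class summed, Mb reached 2095 CPM (95% limits 2069 to 2121) in fast 2A and 1463 CPM (1451 to 1475) in fast 2X cells, a 1.43-fold difference (1.41 to 1.45) or 0.52 on the log2 scale. These and all later limits of levels and ratios cover counting error only. Limits of shares of cells treat the cells as independent draws, although all are of 1 mouse, and cover no spread between mice.

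**Figure D1:**
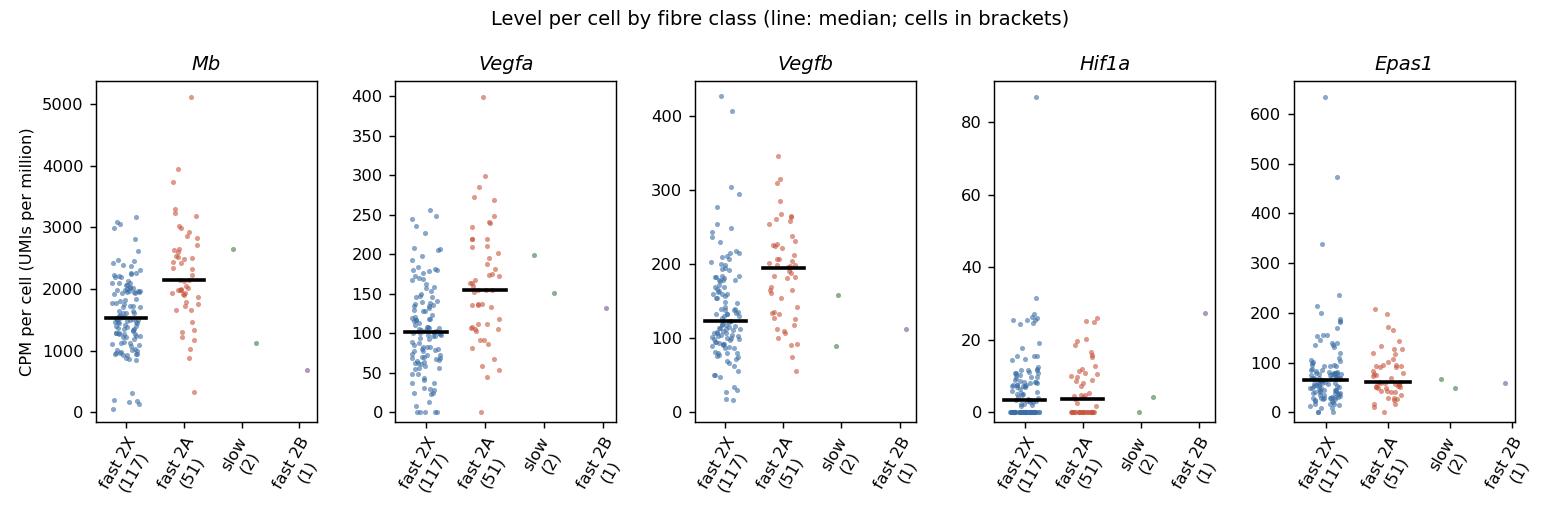
Level of each gene per cell in CPM (vertical axis, linear, a separate scale for each gene) by fibre class, with 1 point per cell and a line at the median of the 117 fast 2X and 51 fast 2A cells. Medians of Mb, Vegfa and Vegfb are higher in fast 2A than in fast 2X cells with wide overlap, and those of Hif1a and Epas1 lie close together.

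The difference in Mb was seen on each plate. Fast 2A cells had the higher Mb level on 8 of 8 plates, with log2 differences from 0.06 on plate 705 to 0.85 on plate 709 and a spread of 0.25 (SD, n = 8 plates). Levels themselves moved between plates: fast 2A cells ranged from 1488 to 2692 CPM and fast 2X cells from 1151 to 2079 CPM. Lanes differed in Mb by about as much as the classes did, since lane 1 gave 2330 CPM in fast 2A and 1760 CPM in fast 2X cells and lane 2 gave 1783 and 1224 CPM. Fast 2A cells of lane 2 were thus level with fast 2X cells of lane 1, and the classes are best compared within a lane.

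Vegfa encodes the main growth factor for capillaries, and in muscle the fibres themselves are a source of it. Its level ranged from 0 to 256 CPM in fast 2X cells with a median of 102, and from 0 to 399 CPM in fast 2A cells with a median of 155. Of the fast 2A cells, 42 of 51 lay above the fast 2X median and 5 lay above every fast 2X cell. Summed Vegfa was 174 CPM (166 to 181) in fast 2A against 122 CPM (118 to 125) in fast 2X cells, a 1.43-fold difference (1.36 to 1.51). Fast 2A cells were higher on 8 of 8 plates, from 0.25 on plate 712 to 1.37 on plate 710 on the log2 scale. Both lanes gave similar differences, 0.53 on lane 1 and 0.51 on lane 2.

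Vegfb, a relative of Vegfa with little action on vessel sprouting, differed in the same direction. It ranged from 17.2 to 427 CPM in fast 2X cells with a median of 124, and from 55.4 to 346 CPM in fast 2A cells with a median of 195. Here the 2 highest cells were fast 2X, at 427 CPM (32 counts) and 407 CPM (16 counts), and 0 fast 2A cells lay above every fast 2X cell, although 42 of 51 lay above the fast 2X median. Summed Vegfb was 196 CPM (188 to 204) in fast 2A against 141 CPM (137 to 145) in fast 2X cells, a 1.39-fold difference (1.33 to 1.46). By plate, fast 2A cells ranged from 179 to 231 CPM and fast 2X cells from 124 to 176 CPM. Vegfb was the only member whose plate levels did not overlap between the classes, but only narrowly. The lowest fast 2A level, 179 CPM on plate 711, came from 336 counts, and the highest fast 2X level, 176 CPM on plate 705, from 262 counts. Its difference was lowest on plate 705, where the log2 value of 0.09 had counting limits that reached below 0.

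Hif1a, the broadly expressed oxygen-regulated factor, was too sparse for a difference to be read. It was found in 98 of 171 cells (57.3%), and with each cell thinned to 28827 UMIs in 15.2% (10.2 to 21.5). The endothelial gene Cdh5 had a UMI in 57.9% of the same cells and 16.4% after thinning, and the satellite cell gene Pax7 in 55.6% and 20.5%. After thinning, the share for Hif1a was thus at the level of those of Cdh5 and Pax7. It lay below those of the endothelial genes Pecam1 (41.5%) and Tek (74.3%). Per cell, Hif1a ranged from 0 to 86.9 CPM in fast 2X cells with a median of 3.47, and from 0 to 25.9 CPM in fast 2A cells with a median of 3.57. Summed Hif1a was 7.31 CPM (5.85 to 9.01, 87 counts) in fast 2A and 7.86 CPM (7.01 to 8.79, 308 counts) in fast 2X cells. The log2 difference of -0.11 had limits from -0.47 to 0.24, and fast 2A cells were higher on 3 of 8 plates.

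Epas1 encodes HIF-2α, which is abundant in endothelial cells. It was found in 167 of 171 cells, and in 78.4% (71.4 to 84.3) after thinning. The endothelial genes Pecam1 and Tek had a UMI in 41.5% (34.0 to 49.3) and 74.3% (67.0 to 80.6) of the same thinned cells, and Cdh5 in 16.4% (11.2 to 22.8). The share for Epas1 thus lay above those of Pecam1 and Cdh5 and near that of Tek in these cells. Per cell, Epas1 ranged from 0 to 635 CPM in fast 2X cells with a median of 65.6, and from 0 to 208 CPM in fast 2A cells with a median of 60.2. Only 24 of 51 fast 2A cells lay above the fast 2X median. Summed Epas1 was 73.8 CPM (69.0 to 78.9) in fast 2A and 63.9 CPM (61.4 to 66.5) in fast 2X cells, a 1.16-fold difference (1.07 to 1.25). This small difference did not hold across the data: fast 2A cells were higher on 5 of 8 plates, from -0.69 on plate 707 to 1.30 on plate 712. Without plate 712 the log2 difference was 0.04, lane 1 gave 0.05 and lane 2 gave 0.40, and the median over cells turned its direction (-0.12).

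**Figure D2:**
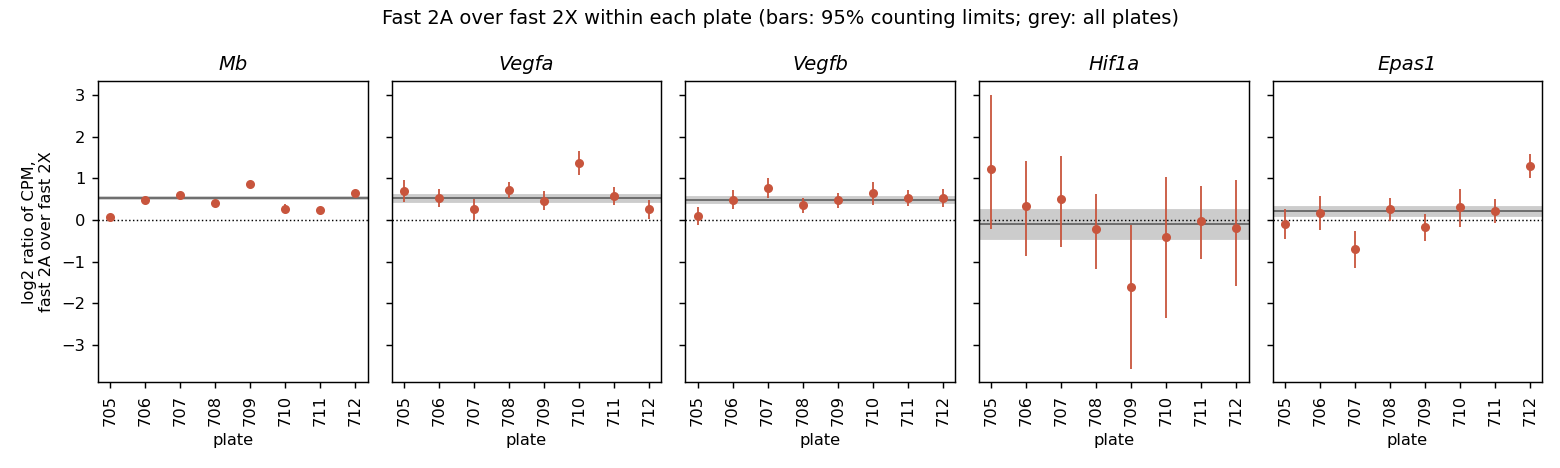
Log2 ratio of summed CPM, fast 2A over fast 2X, for each gene on each of the 8 plates (points, with 95% counting limits as bars), with the value over all plates and its limits in grey and a dotted line at 0. Mb, Vegfa and Vegfb lie above 0 on all 8 plates, whereas Hif1a and Epas1 lie on both sides.

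The other 3 cells gave single values. The slow cells had 2648 CPM (2504 to 2798) and 1133 CPM (934 to 1361) of Mb, the first above and the second below both fast medians. Their Vegfa was 150 and 199 CPM, their Vegfb 159 and 89.4 CPM and their Epas1 66.8 and 49.7 CPM. Hif1a had 2 counts in the first and 0 of 100629 UMIs in the second, which allows up to 36.7 CPM. The fast 2B cell had 693 CPM of Mb (595 to 802), 132 CPM of Vegfa, 113 CPM of Vegfb, 27.2 CPM of Hif1a (7 counts) and 58.4 CPM of Epas1. It also held 2089 CPM of fibro-adipogenic markers, the second highest sum of the 171 cells, and their part in its values was not tested.

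These differences can be set beside those of all genes. Of 8649 genes with at least 500 counts over both classes, 222 (2.57%) were at least 1.5-fold higher in fast 2A cells and 632 (7.31%) at least 1.5-fold lower, and the median log2 difference was -0.09. Of the 5 members, 4 reached 500 counts and 0 of 4 passed 1.5-fold in either direction. A difference at least as high as theirs was found in 3.45% of genes for Mb, 3.50% for Vegfa, 4.28% for Vegfb and 15.6% for Epas1. The count past 1.5-fold depended on the scaling. Scaled by the trimmed mean of M values, which moved every log2 difference up by 0.11, 379 genes (4.38%) were higher and 389 (4.5%) lower, and 3 of the 4 members then passed 1.5-fold, at 0.63 for Mb, 0.63 for Vegfa and 0.59 for Vegfb.

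The per-cell relation of Mb to the fibre type was then examined through the Myh2 share, the percentage of a cell's counts of the 5 Myh genes that came from Myh2. It ranged from 7.27% to 47.7% in fast 2X cells and from 45.3% to 85.6% in fast 2A cells. Across the 171 cells the Spearman correlation of Mb with the Myh2 share was 0.45 (Pearson 0.31 on log2(CPM + 1)), and it was above 0 on 8 of 8 plates, from 0.10 to 0.78. The median Mb level was 1223 CPM in the 21 cells with a share under 15% and 1495 CPM in the 39 cells from 15 to 20%. It was 1587 CPM in 26 cells from 20 to 30%, 1892 CPM in 28 cells from 30 to 40% and 1887 CPM in 10 cells from 40 to 50%. Above that it was 2287 CPM in 24 cells from 50 to 70% and 2000 CPM in 23 cells of 70% and more. With both lanes pooled, Mb thus lay higher in cells of intermediate share than in those of lowest share. It was no higher in the cells above 70% than in those from 50 to 70%. The lanes differ in Mb level, and within fast 2X cells the correlation was -0.051 on lane 1 and 0.44 on lane 2. Of the 21 cells under 15%, 18 were fast 2X cells.

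**Figure D3:**
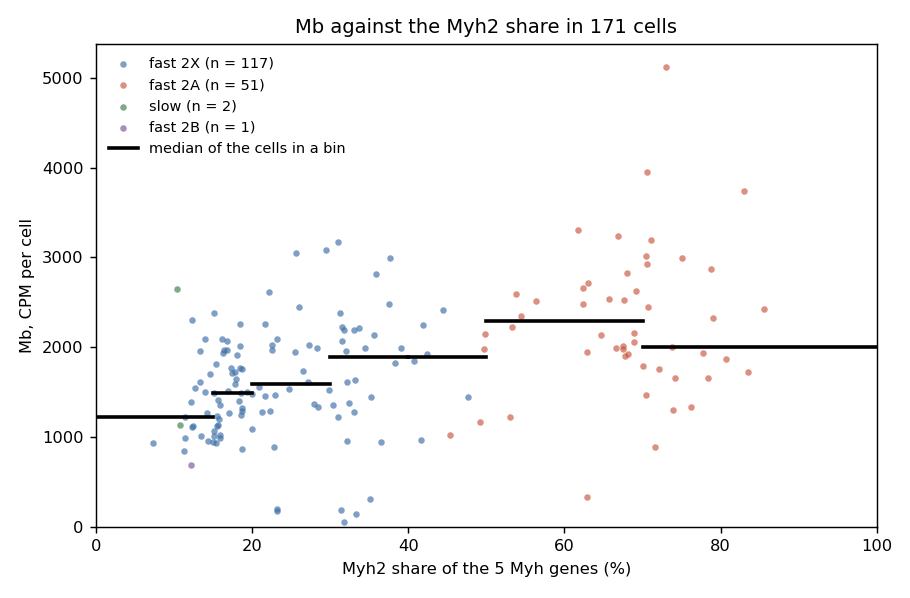
Mb in CPM (vertical axis) against the Myh2 share of the 5 Myh genes in percent (horizontal axis), with 1 point per cell coloured by fibre class and a line at the median of the cells in each bin of Myh2 share. Bin medians, with both lanes pooled, go from 1223 CPM under 15% to 2287 CPM between 50 and 70%. At the bottom lie 8 cells with 50.8 to 693 CPM.

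Within a class the relation was weaker. The Spearman correlation was 0.28 within the 117 fast 2X cells and 0.038 within the 51 fast 2A cells. As Pearson r on log2(CPM + 1) the order was reversed, with 0.050 within fast 2X and 0.19 within fast 2A cells. The Spearman value within fast 2X cells rested on lane 2, where it was 0.44 in 58 cells, whereas on lane 1 it was -0.051 in 59 cells. Across both classes the lanes gave 0.35 and 0.53. Without the 8 cells of low myofiber marker level the correlation was 0.48 over all cells and 0.39 within fast 2X cells. When the mitochondrial ribosomal RNAs mt-Rnr1 and mt-Rnr2 were left out of the mitochondrial share, 234 cells passed the filters and the correlation was 0.21. The cells also share their library totals: the Myh2 share had a correlation of -0.25 with the UMI total and 0.32 with the mitochondrial share, and Mb had -0.23 and -0.056. The part of depth and of mitochondrial counts in the relation was not tested.

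The other members followed the Myh2 share differently. Vegfa gave 0.24 over all cells and 0.017 within fast 2X cells, and within fast 2A cells it gave -0.28, with -0.22 and -0.30 on the lanes. Vegfb gave 0.19 over all cells but -0.19 within fast 2X cells, with -0.25 on lane 1 and -0.15 on lane 2. The median Vegfb level was 157 CPM under 15% and fell through 130, 117 and 106 CPM in the next bins up to 40%, then lay at 171 CPM from 40 to 50%, 196 CPM from 50 to 70% and 197 CPM from 70%. Median Vegfb was therefore lowest in the bin from 30 to 40%, and the few cells from 40 to 50%, of which 6 were fast 2X and 4 fast 2A, lay between it and the highest bins. The bin from 30 to 40% also had the lowest median UMI total (118886) and the highest median mitochondrial share (8.37%). Epas1 gave 0.21 over all cells and 0.33 within fast 2X cells, at 0.16 on lane 1 and 0.41 on lane 2, with medians of 48.4 CPM under 15% and 82.8 CPM from 30 to 40%. Hif1a gave -0.041 over all cells. The UMI total itself had a correlation of 0.29 with Vegfa, 0.13 with Vegfb, 0.38 with Hif1a and -0.16 with Epas1.

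The lowest Mb and the highest Epas1 levels were found in the same few cells. In the 8 cells with under 50000 CPM of myofiber markers, Mb ranged from 50.8 to 693 CPM with a median of 192, and in the other 163 cells from 847 to 5123 CPM with a median of 1812, so that the ranges did not overlap. Median Vegfa was 16.2 CPM in the 8 cells and 117 CPM in the others, and median Epas1 was 146 and 61.9 CPM. The 8 cells had a median of 783 CPM of endothelial markers against 109 CPM, 769 against 65.6 CPM of pericyte and smooth muscle markers and 1338 against 18.8 CPM of fibro-adipogenic markers. The cells were grouped by myofiber markers after the values were seen, and the difference is a description.

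Single cells show the pattern. The cell with the highest Epas1, 635 CPM (411 to 937, 25 counts), had the lowest Mb, 50.8 CPM (2 counts), and the highest endothelial and smooth muscle marker sums of the 171 cells. The next cells by Epas1, at 474 and 338 CPM, had 174 and 193 CPM of Mb and ranked 3 and 4 by endothelial markers, and all of these cells were fast 2X cells of plate 710. The cell with the highest Hif1a, 86.9 CPM (19 counts), came from plate 711, ranked 2 by endothelial markers and had 137 CPM of Mb. Over all 171 cells, in contrast, Epas1 and the endothelial sum had a correlation of only -0.0025. Most of that sum came from 1 gene, Tek. It gave 90.3 of 135 CPM in fast 2A and 90.9 of 144 CPM in fast 2X cells. Without the 8 cells the highest Epas1 level was 235 CPM and the highest Hif1a level 31.4 CPM. The part of RNA from other cells in Epas1 and Hif1a was not tested.

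**Figure D4:**
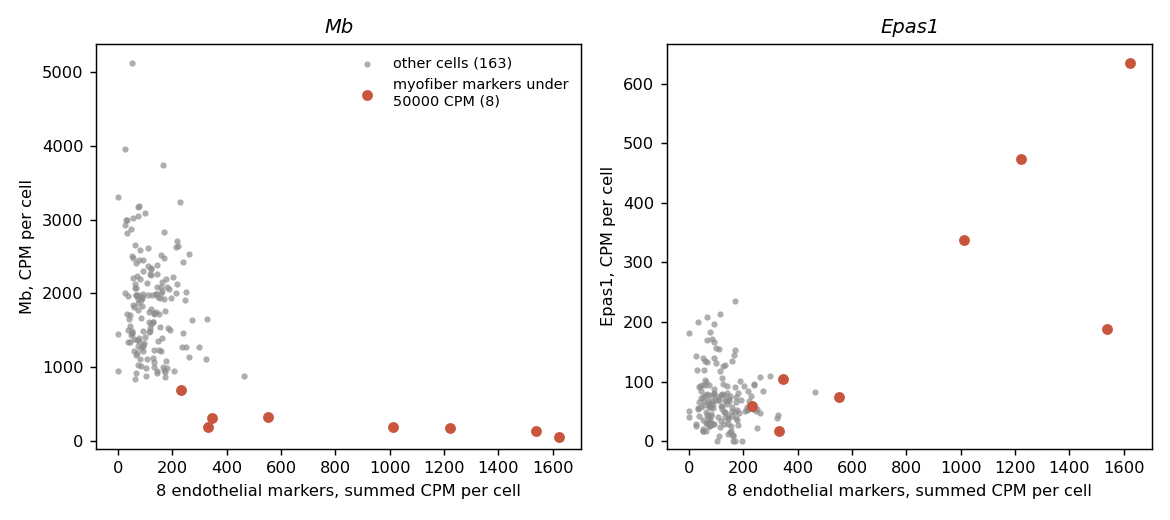
Mb (left) and Epas1 (right) in CPM per cell against the summed CPM of 8 endothelial markers, with the 8 cells of under 50000 CPM of myofiber markers in red and the other 163 in grey. The red cells have 50.8 to 693 CPM of Mb, under every grey cell, and include the 3 cells of highest Epas1.

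Among the genes most like Mb per cell were contractile and mitochondrial genes. Of 1379 genes with at least 5000 counts, those with the highest Spearman correlations with Mb over the 171 cells included skeletal actin Acta1 (0.65) and the ATP synthase gene Atp5g1 (0.64). The sarcomere genes Myoz2 and Tpm2 had 0.63 each, the ATP synthase gene Atp5b, the mitochondrial ADP/ATP carrier Slc25a4 and the Z-disc gene Actn2 had 0.60 each, and Coq8a, of coenzyme Q synthesis, had 0.59. Within fast 2X cells the values for these 8 genes lay between 0.44 and 0.65 and within fast 2A cells between 0.31 and 0.66. The lowest correlations with Mb were those of Cntnap2 (-0.56), Lrmda (-0.48), Ctnna3 (-0.47), Tle4 (-0.45) and Atp8a2 (-0.45). All points share the cells' totals, and Mb itself had a correlation of -0.31 with the number of genes detected.

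The vessel growth factors had other neighbours. The highest correlations with Vegfa were those of the endoplasmic reticulum turnover receptor Retreg1 (0.54), hexokinase Hk2 (0.54), the stress transcription factor Ddit3 (0.53), the amino acid transporter Slc38a2 (0.53) and the muscle ubiquitin ligase Trim63 (0.50). Among the 17 known HIF target genes with at least 500 counts, the correlations with Vegfa ranged from -0.055 to 0.54 with a median of 0.064. After Hk2 the highest were Bnip3 (0.26), Slc2a1 (0.26) and P4ha2 (0.21). The highest with Vegfb were the respiratory chain genes Cox7a2 (0.45), Ndufb8 (0.41), Ndufa11 (0.40) and Cox7b (0.40), and Gm20538 (0.41). For Hif1a the highest were Usp34 (0.35), Spag9 (0.33), Setbp1 (0.31), Csnk1a1 (0.30) and Malat1 (0.30), and for Epas1 the highest included Pitpnc1 (0.23), Arhgef12 (0.23), Sgms1 (0.21) and Bmpr2 (0.21). These last values are weak and come from sparse counts, so they single out no gene.

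The genes around the members were compared between the classes by fixed lists. Of 14 oxygen sensors and HIF partners, 11 reached 500 counts and 0 passed 1.5-fold, with a median log2 difference of 0.04. Over all 8649 genes the median was -0.09, with 2.57% at least 1.5-fold higher and 7.31% lower. The prolyl hydroxylase Egln1, the sensor with most counts, had 174 CPM in fast 2A and 188 CPM in fast 2X cells, and the difference was -0.11.

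Of 25 known HIF target genes, 17 reached 500 counts, with a median of -0.12, near the -0.09 of all 8649 genes. Of the 17, 0 were at least 1.5-fold higher in fast 2A cells and 4 lower, beside 2.57% and 7.31% of all genes. All 4 belong to glycolysis and its product. Pfkfb3 and Pfkfb4, which make the activator of phosphofructokinase, differed by -0.89 and -0.81. Lactate dehydrogenase Ldha had 835 CPM in fast 2A and 1340 CPM in fast 2X cells (-0.68), and the lactate exporter Slc16a3, named after its value was seen, had 99.4 and 158 CPM (-0.67). Each was lower in fast 2A cells on 8 of 8 plates, the reverse of Vegfa, which is counted among HIF targets too. With the trimmed mean of M values 2 of the 4 passed 1.5-fold, and all 4 kept their direction, as every difference moves by 0.11. On lane 1 alone 6 of 14 genes of this list with 500 counts were at least 1.5-fold lower, and on lane 2 alone 3 of 15. The pyruvate dehydrogenase kinase Pdk1 had 58.1 CPM in fast 2A and 45.0 CPM in fast 2X cells, a difference of 0.37 that did not reach 1.5-fold and was the highest among the 17 genes with 500 counts.

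A list of 11 vessel growth genes held other VEGF family ligands and receptors and also Angpt1, Angpt2 and Apln, which are outside that family. Of the 11, 5 reached 500 counts, with a median of -0.51, the value of Angpt1, beside -0.09 over all 8649 genes. Vegfd (0.26) and Nrp1 (0.35) were higher in fast 2A cells, and Flt1 (-0.61) and Nrp2 (-0.54) were lower. Of all genes, 7.31% were at least 1.5-fold lower in fast 2A cells. The VEGF receptor Flt1, an endothelial gene, was the 1 gene past 1.5-fold, with 19.5 CPM in fast 2A and 29.7 CPM in fast 2X cells (-0.61), and it was lower on 6 of 8 plates. Without the 8 cells of low myofiber marker level 0 of this list passed 1.5-fold and its median was -0.23, and on lane 1 alone the median was 0.08. Of 6 other globins 0 reached 500 counts. The haemoglobin gene Hbb-bs, an erythrocyte marker and the globin with most counts, had 4.12 CPM (49 counts) in fast 2A and 11.2 CPM (439 counts) in fast 2X cells. Summed erythrocyte markers had a median of 45.7 CPM in the 8 cells of low myofiber marker level and 3.89 CPM in the others.

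Of 13 regulators of Mb and Vegf in muscle, 12 reached 500 counts, with a median of 0.18 beside -0.09 over all 8649 genes. Of the 12, 2 were at least 1.5-fold higher in fast 2A cells and 0 lower, beside 2.57% and 7.31% of all genes. Both were oestrogen-related receptors, which regulate oxidative metabolism: Esrrb had 51.6 CPM in fast 2A and 26.0 CPM in fast 2X cells (0.99), and Esrrg had 198 and 111 CPM (0.83). Each was higher on 8 of 8 plates, as Mb, Vegfa and Vegfb were, from 0.19 to 1.62 for Esrrb and from 0.58 to 1.18 for Esrrg. Both passed 1.5-fold also with the trimmed mean of M values, on each lane and without the 8 cells, at 0.77 to 1.20 for Esrrb and 0.80 to 0.94 for Esrrg. The third receptor, Esrra, had 62.1 and 52.5 CPM (0.24), the coactivator Ppargc1a had 76.3 and 75.1 CPM (0.02), and its relative Ppargc1b had 89.0 and 66.9 CPM (0.41), higher in fast 2A cells on 8 of 8 plates. The lists were described by counts and medians beside those of all 8649 genes, and no list was tested.

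**Figure D5:**
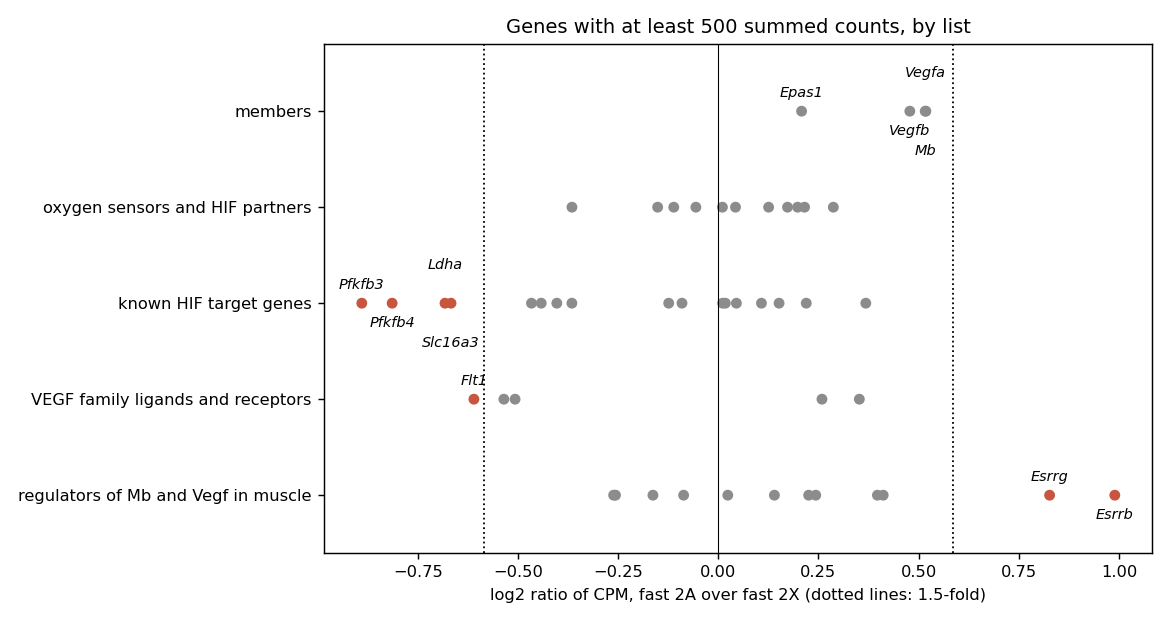
Log2 ratio of summed CPM, fast 2A over fast 2X (horizontal axis), of each gene with at least 500 counts, by list (rows), with dotted lines at 1.5-fold and genes past them in red. The row of VEGF family genes also holds Angpt1, which is outside that family. Mb, Vegfa and Vegfb lie just inside the upper line with this scaling (and past it with the trimmed mean of M values), Esrrb and Esrrg beyond it, and 4 HIF target genes and Flt1 beyond the lower line.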

How the data were processed

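Single myofibers of 1 mouse were sequenced by the authors with mcSCRB-seq on 2 lanes. Per the submitters' processing notes and the study's methods, reads were mapped to GRCm38 (mm10) with spike-in sequences and UMIs were counted per gene with zUMIs, and the notes list STAR 2.5.4b, featureCounts and Cell Ranger 3.1.0. The table the authors deposited holds raw UMI counts per gene and cell, not normalized, with further rows that describe each cell. These include the index taken here as the plate, the lane, read numbers and percents. No count model was fitted, since cells of 1 mouse are not replicates.

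Cells with more than 5000 genes and under 20% mitochondrial counts were kept and classed by their largest Myh gene. Counts were summed per class and given as CPM with exact Poisson 95% limits, ratios with exact conditional binomial limits and shares with Clopper-Pearson limits (Python 3.11.15, numpy 2.4.6, pandas 2.3.3, scipy 1.17.1). UMI totals of 28827 to 1542996 set the precision. Ratios were compared among 8649 genes with at least 500 counts and a 1.5-fold threshold, leaving out the 5 Myh genes of the class rule. The ratio step was tested on simulated Poisson counts only. These hold no spread between cells or plates, so the test does not bear on that spread.

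Named genes were the 5 members, the up to 3 genes of each list with the largest difference past 1.5-fold each way or else the gene with most counts, and the genes with the highest or lowest correlation with a member. Of the latter, 3 genes are not reported here. A few others are named after their values were seen: Slc16a3, Pdk1, Bnip3, Slc2a1, P4ha2, Esrra, Ppargc1a and Ppargc1b. The members and lists were chosen with earlier results of these data known. The alternatives were other filters, scalings, averages and count minimums, thinning, and leaving out each plate or lane. Leaving out the 8 cells of low myofiber marker level was chosen after seeing the data.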

Additional observations from a re-analysis of the deposited data

How the results depend on the processing

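The log2 differences of Mb, Vegfa and Vegfb were above 0 under each of the 19 alternatives run, which included leaving out each plate and each lane. With the trimmed mean of M values Mb was 0.63, Vegfa 0.63 and Vegfb 0.59, and 379 genes were at least 1.5-fold higher and 389 lower, since this scaling moves each difference by 0.11. As a mean over cells Vegfa was 0.61 and Epas1 -0.11, and as a median over cells Vegfa was 0.61, Vegfb 0.66 and Epas1 -0.12. With cells thinned to the smallest total Vegfa was 0.58 and Epas1 -0.0070, and 59 genes were higher and 53 lower among fewer genes reaching the minimum. Vegfa was 0.47 with the largest Myh gene at 60% or more and 0.55 without mitochondrial genes in the total. The cause of the change of direction in Epas1 was not tested. The correlation of Mb with the Myh2 share was 0.21 with mt-Rnr1 and mt-Rnr2 left out of the mitochondrial share, 0.31 as Pearson r, 0.28 within fast 2X and 0.038 within fast 2A cells. With at least 50 summed counts 1063 genes were higher and 3282 lower, and with at least 1 count in each class 4034 and 6397. Leaving out 1 plate or lane gave 0.40 to 0.57 for Mb, 0.43 to 0.62 for Vegfa, 0.45 to 0.52 for Vegfb, -0.43 to 0.18 for Hif1a and 0.04 to 0.40 for Epas1. It gave 0.35 to 0.53 for the correlation, 203 to 250 genes higher and 325 to 692 lower, the 325 without lane 2. No paired test was run, since all cells are of 1 mouse. The classes were instead compared within each plate and lane. Counts limit Hif1a most, with 404 in all.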

Other observations

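The 592 cells that did not pass the filters, which had a median of 48.0% mitochondrial counts and 16032 UMIs, gave other levels of the 5 genes when mitochondrial counts were taken out of the total. Mb was 769 CPM in them against 1717 CPM in the 171 cells that passed, 2.23-fold lower, and it was lower on 8 of 8 plates. Of 9747 genes with at least 500 counts, 12.9% were at least 1.5-fold lower in the cells left out and 26.4% at least 1.5-fold higher. Vegfa was 97.2 against 143 CPM, lower on 8 of 8 plates, and Vegfb was 145 against 163 CPM, lower on 5 of 8. Hif1a was 9.32 CPM from 69 counts against 8.28 CPM, and the log2 difference of 0.17 had limits from -0.22 to 0.54.

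Epas1 went the other way, with 173 CPM (164 to 183) in the cells left out against 70.4 CPM (68.0 to 72.8), a 2.46-fold difference (2.30 to 2.62) that was seen on 8 of 8 plates. Summed endothelial markers were 624 CPM in the cells left out against 152 CPM, pericyte and smooth muscle markers 441 against 91.4 CPM, fibro-adipogenic markers higher by 2.08 on the log2 scale and erythrocyte markers 308 against 19.9 CPM. The 6 myofiber markers were 86885 against 117478 CPM. In the 111 cells left out with over 5000 genes Epas1 was 216 CPM and Mb 689 CPM, and in the 481 with fewer genes Epas1 was 119 CPM and Mb 868 CPM. The part of RNA from other cells in the level of Epas1 was not tested.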
